A study of Homo sapiens with 4 samples.

Results

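The departure from additivity was described for β-TrCP knockdown and androgen ablation in LAPC4 cells, a human prostate cancer line that responds to androgen. For each probe set, the log2 change with charcoal stripped serum (CSS) against fetal calf serum (FCS) was taken in cells with β-TrCP shRNA and in control cells, and the departure was the first change minus the second. A departure of 0 means that the log2 change with both treatments equalled the sum of the single log2 changes, a departure above 0 that the signal with both treatments lay above that sum, and a departure of 1 or -1 that it was 2-fold above or below it. Members were the 6098 probe sets, of 22215 on the array besides Affymetrix controls, with a deposited log2 signal of at least 6.64 (a signal of 100) on at least 1 of the 4 arrays. A single gene symbol was given for 5395 of them, and they covered 3988 genes, for each of which the brightest member probe set stood. There was 1 array for each of 4 conditions, and each array enters the departure once, so that no residual degree of freedom remained, and no replicate error or p-value can be given for any value below.

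The cells carried a lentiviral vector and were kept for 72 h in medium with 10% FCS and 100 pM methyltrienolone, a synthetic androgen, or with 10% CSS and no methyltrienolone. Serum and added androgen therefore differed together between the media. The arrays called control here are labelled as cells infected with GFP, and those called shRNA as cells infected with β-TrCP shRNA. The study's text describes an inducible shRNA vector, in which doxycycline switches on an shRNA against both β-TrCP genes and a tet repressor fused to eGFP is always made, and in different places names uninduced cells or the empty vector as the control. Effects of doxycycline or of the vector cannot be told apart from those of the knockdown. The array with both shRNA and CSS is called the combined array.

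β-TrCP1 and β-TrCP2 are the subunits with which an SCF ubiquitin ligase recognises phosphorylated substrates, among them β-catenin and IκB. Androgens act on prostate cells through a nuclear receptor that switches on secretory and metabolic genes, and luminal prostate cells, which secrete large amounts of protein, carry a well developed endoplasmic reticulum (ER). When unfolded proteins build up there, the unfolded protein response raises ER chaperones through the transcription factors ATF6 and XBP1. A shortage of amino acids or other stress acts through ATF4 on genes of amino acid synthesis and on stress genes. Where 2 treatments reach a gene through the same step, their joint effect can fall short of the sum of the single effects.

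The combined array stood apart. Its deposited values had an interquartile range of 2.07 on the log2 scale, against 2.69 to 2.74 on the others, and passed the signal limit for 4058 probe sets, against 5367 to 5477. Its Pearson correlation with the other arrays across probe sets was 0.946 to 0.948, while the others correlated with each other at 0.985 to 0.992. The 3′ to 5′ difference of the ACTB controls was 0.41 to 0.45 on 3 arrays and 1.03 on the control in CSS. FBXW11, which encodes β-TrCP2 and is targeted by the shRNA, had normalized log2 signals of 8.02 and 8.19 on the control arrays in FCS and CSS and of 5.02 and 4.68 on the shRNA arrays, as the labels have it, and its departure was -0.51. BTRC (β-TrCP1) did not reach the signal limit. All 7 luminal markers that could be matched were past the limit, KRT18, KRT8, EPCAM, HOXB13, KLK3, KLK2 and TMPRSS2. No marker of basal cells, fibroblasts, leukocytes, endothelium, erythroid cells, liver, skeletal muscle or neurons was past it. The summed signal of each of these sets except the basal one was nonetheless highest on the combined array. It was 220 there and 147 to 152 on the others for 8 fibroblast markers, and 202 and 123 to 130 for 7 leukocyte markers. For neurons it was 80.8 and 53.2 to 55.7, for skeletal muscle 80.1 and 56.7 to 59.6, and for liver 92.2 and 70.1 to 73.9. The rise was thus not particular to fibroblast or leukocyte markers. The sum of the basal markers was lowest on the combined array, at 129 against 156 to 172. The part of these differences in the departures was not tested.

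Most departures were small. The median over the members was -0.05, the range was -2.68 to 3.06, and 71.8% lay within 0.5 of 0 on the log2 scale. Their robust SD was 0.42, compared with 0.29 for the CSS change in control cells and 0.31 for the shRNA change in FCS. The changes that involve the combined array were as wide as the departure itself, with robust SDs of 0.43 for CSS in shRNA cells and 0.42 for the shRNA in CSS. A departure of at least 2-fold was found for 155 probe sets higher than the sum (2.54% of the members) and 313 lower (5.13%). By genes these counts were 92 (2.31%) and 201 (5.04%).

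The balance of higher and lower departures differed with the arrays on which a probe set passed the limit. The 102 probe sets past the limit on the combined array alone had to lie high there: their median departure was 1.41 and 80 were at least 2-fold higher. Of the 2040 that passed on other arrays but not on the combined one, 298 were at least 2-fold lower and 9 higher. Among the 3832 past the limit on all 4 arrays, a selection that leaves out genes that were low on the combined array, the median was 0.02, and 2-fold departures numbered 50 above the sum (1.3%) and 14 below it (0.365%). Over all 15643 probe sets that reached a signal of 20 on any array, 6.96% were at least 2-fold higher and 6.39% lower. It differed with the normalization as well: the values as deposited gave a median of -0.46, with 56 members at least 2-fold higher and 1075 lower, and arrays shifted to a common median gave -0.17, with 107 and 474. Just inside the limit of 6.64, the 294 probe sets within 0.1 of it had a median departure of -0.22, and the 297 just outside -0.13.

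Departures were wider in dim probe sets. In the dimmest decile of the members, at a median log2 signal of 6.27, the robust SD was 0.66, with 10% of the probe sets at least 2-fold higher and 25.9% lower. In the brightest decile, at 10.96, it was 0.13, and 3 of 610 probe sets were 2-fold higher and none lower. This spread at a gene's own signal, taken over the 1000 members nearest in mean signal, is given below as the local spread. Among the probe sets with a departure of at least 2-fold, the combined array was the one farthest from the mean of the other 3 in 368 (78.6%, against 37.3% of all members), the shRNA array in FCS in 49, the control in CSS in 39 and the control in FCS in 12. Past the limit on all 4 arrays, the combined array was farthest in 32 of 64, against 27.0% of all such members. Probe sets whose names end in _x_at, which contain probes that may also match other transcripts, were at least 2-fold higher in 4.80% and lower in 1.48%, while plain _at probe sets were higher in 2.20% and lower in 6.46%. Of the 5 members ending in _r_at, which were designed under relaxed rules, 4 were at least 2-fold higher.

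Separate probe sets of a gene measure the same RNA on the same arrays, and agreed less on the departure than on the single changes. For the 1046 genes with at least 2 member probe sets above the floor (a signal of 20, log2 4.32) on all 4 arrays, the departures of the brightest and the second probe set had a Pearson correlation of 0.37 (Spearman 0.39) across genes, which are not independent replicates, and the same direction in 670 genes (64.1%). The shRNA change in FCS of the same probe sets correlated at 0.85 with the same direction in 82.5%, and the CSS change in control cells at 0.64 with 73.4%. The 2 changes that involve the combined array agreed less than these, CSS in shRNA cells at 0.51 with 69.1% and the shRNA in CSS at 0.47 with 64.8%. The lower agreement was therefore not particular to the departure. Over probe sets past the limit on all 4 arrays the correlation of the departures was 0.41 in 565 genes. Of 10 genes whose brightest probe set was at least 2-fold higher, the second was over 0 in 8 and at least 2-fold higher in 3; of 18 whose brightest was at least 2-fold lower, the second was under 0 in 16 and at least 2-fold lower in 5. The extreme departure of all, 3.06 for a dim probe set of PFDN4, a prefoldin subunit, stood beside -0.98 for its brighter one.

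Of the 1048 genes with at least 2 member probe sets, 247 had all of them over 0, 368 all under 0 and 433 had both directions. All probe sets were at least 2-fold higher in 3 genes, STK11, MAST4 and HGH1, and at least 2-fold lower in 6, among them PPP2R1B, RFC3, PSPH, FMR1 and SERHL2. STK11 (LKB1), a kinase that activates AMPK, had log2 signals of 6.28, 6.15 and 6.14 on the control in FCS, the control in CSS and the shRNA in FCS, and of 8.04 on the combined array; its departures were 2.03 and 2.22 in 2 probe sets. MAST4, a serine/threonine kinase, stood at 5.63, 5.89 and 6.05 and at 8.12 on the combined array, with departures of 1.80 and 1.82. HGH1, a chaperone of a translation elongation factor, departed by 1.48 and 1.59, and in the first by 0.97 with the values as deposited. These genes were past the limit on the combined array only, which fixes their direction in part, and both probe sets share that selection.

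SPDEF, MYDGF and INTS15 had agreeing probe sets that were all past the limit on all 4 arrays. SPDEF, an ETS transcription factor of secretory epithelia, had departures of 0.93, 1.05 and 1.01 in 3 probe sets, against local spreads of 0.34 to 0.41. Its brightest probe set was at 8.66 and 8.75 on the control arrays and 7.83 with the shRNA in FCS, but at 8.85 on the combined array. The array that stood out was thus the shRNA in FCS, and the combined array was level with the controls. All 3 are _x_at probe sets, and 2 dimmer ones outside the members departed by 0.52 and 1.58. MYDGF, a secreted growth factor, showed the same form in 2 probe sets, with departures of 1.06 and 0.83; its brighter one was at 9.82, 9.43, 9.02 and, on the combined array, 9.69. INTS15, a subunit of the Integrator complex, was instead higher on the combined array alone, at 6.68, 6.69, 6.86 and 7.67, with departures of 0.79 and 1.02. The other genes among the 12 with the highest agreed departures were MZF1, TNK1, SDHAF1, DRG2, DNAJB12 and ATG13, whose smallest departure over their probe sets lay between 0.65 and 0.97. Each of these had at least 1 member probe set that did not pass the limit on all 4 arrays, and both probe sets of MZF1 and of DRG2 passed on the combined array alone, so that the filter fixed part of their agreement.

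On the lower side, PPP2R1B, a scaffold subunit of protein phosphatase 2A, had departures of -1.40 and -1.86 in 2 member probe sets. Its brighter one stood at 5.99 and 5.88 on the control arrays, 6.92 with the shRNA in FCS and 5.42 on the combined array, so that it passed the limit with the shRNA in FCS only, and with the floor at a signal of 100 it departed by -0.28; 2 dimmer probe sets outside the members gave -0.15 and 0.12. RFC3, a subunit of the clamp loader of DNA replication, departed by -1.51 and -1.27, with signals of 7.69, 7.40, 8.37 and 6.58. It was highest with the shRNA in FCS and lowest with the shRNA in CSS. PSPH, which makes serine from phosphoserine, departed by -1.32 and -1.10, and FMR1, an RNA-binding regulator of translation, by -1.01 and -1.03. NBN, a member of the complex that senses DNA double-strand breaks, departed by -0.95 and -0.97, and HEATR1, a factor of ribosome assembly, by -0.86 and -0.92. Other agreed genes of the lowest 12 were SSX2IP, OSBPL8, GULP1, PAK2 and PHF3. With the floor at a signal of 100, the brightest probe sets of NBN, GULP1, PHF3, PAK2 and SSX2IP departed by -0.081, -0.0094, 0, -0.28 and -0.34. Those of RFC3 (-1.44), PSPH (-1.03), OSBPL8 (-0.95), HEATR1 (-0.86) and FMR1 (-0.82) changed less. Where probe sets passed the limit only on arrays other than the combined one, the filter fixed part of their agreement.

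A first form of departure was a response to the shRNA in FCS that was not seen in CSS. Of 28 members that differed at least 2-fold between shRNA and control in FCS and by less than 0.5 on the log2 scale in CSS, 12 had a departure of at least 2-fold below and 4 above the sum. Such a gene departs by construction, and the values are given as a description. PMAIP1 (NOXA), a pro-apoptotic member of the BCL2 family, had the lowest departure of all members, -2.68, against a local spread of 0.73. Its log2 signal was 4.82 and 5.45 on the control arrays, 7.25 with the shRNA in FCS and 5.21 on the combined array. A dimmer probe set outside the members was at the floor of 4.32 on 3 arrays and at 5.84 with the shRNA in FCS. Both probe sets were thus highest with the shRNA in FCS, the only array on which PMAIP1 passed the limit, and with the floor raised to a signal of 100 its departure was -0.61. MAN1A1, a Golgi mannosidase that trims N-glycans, was at 6.56 with the shRNA in FCS and at 4.54 to 4.62 on the other arrays, with a departure of -2.07; it too passed on that array alone, and no departure remained with the floor at 100. SLC30A1, which exports zinc from the cell, was at 8.0 with the shRNA in FCS and 6.84, 7.05 and 6.75 on the control in FCS, the control in CSS and the combined array, a departure of -1.46. Other genes were highest with the shRNA in FCS but lower on the combined array than on the control in CSS. SLC39A8, an importer of zinc and other metals, departed by -1.25 in its brightest probe set and -0.17 in the second. DPYSL2, a regulator of microtubules, was at 6.35 and 6.98 on the control arrays, 7.44 with the shRNA in FCS and 6.11 on the combined array, a departure of -1.96.

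**Figure D1:**
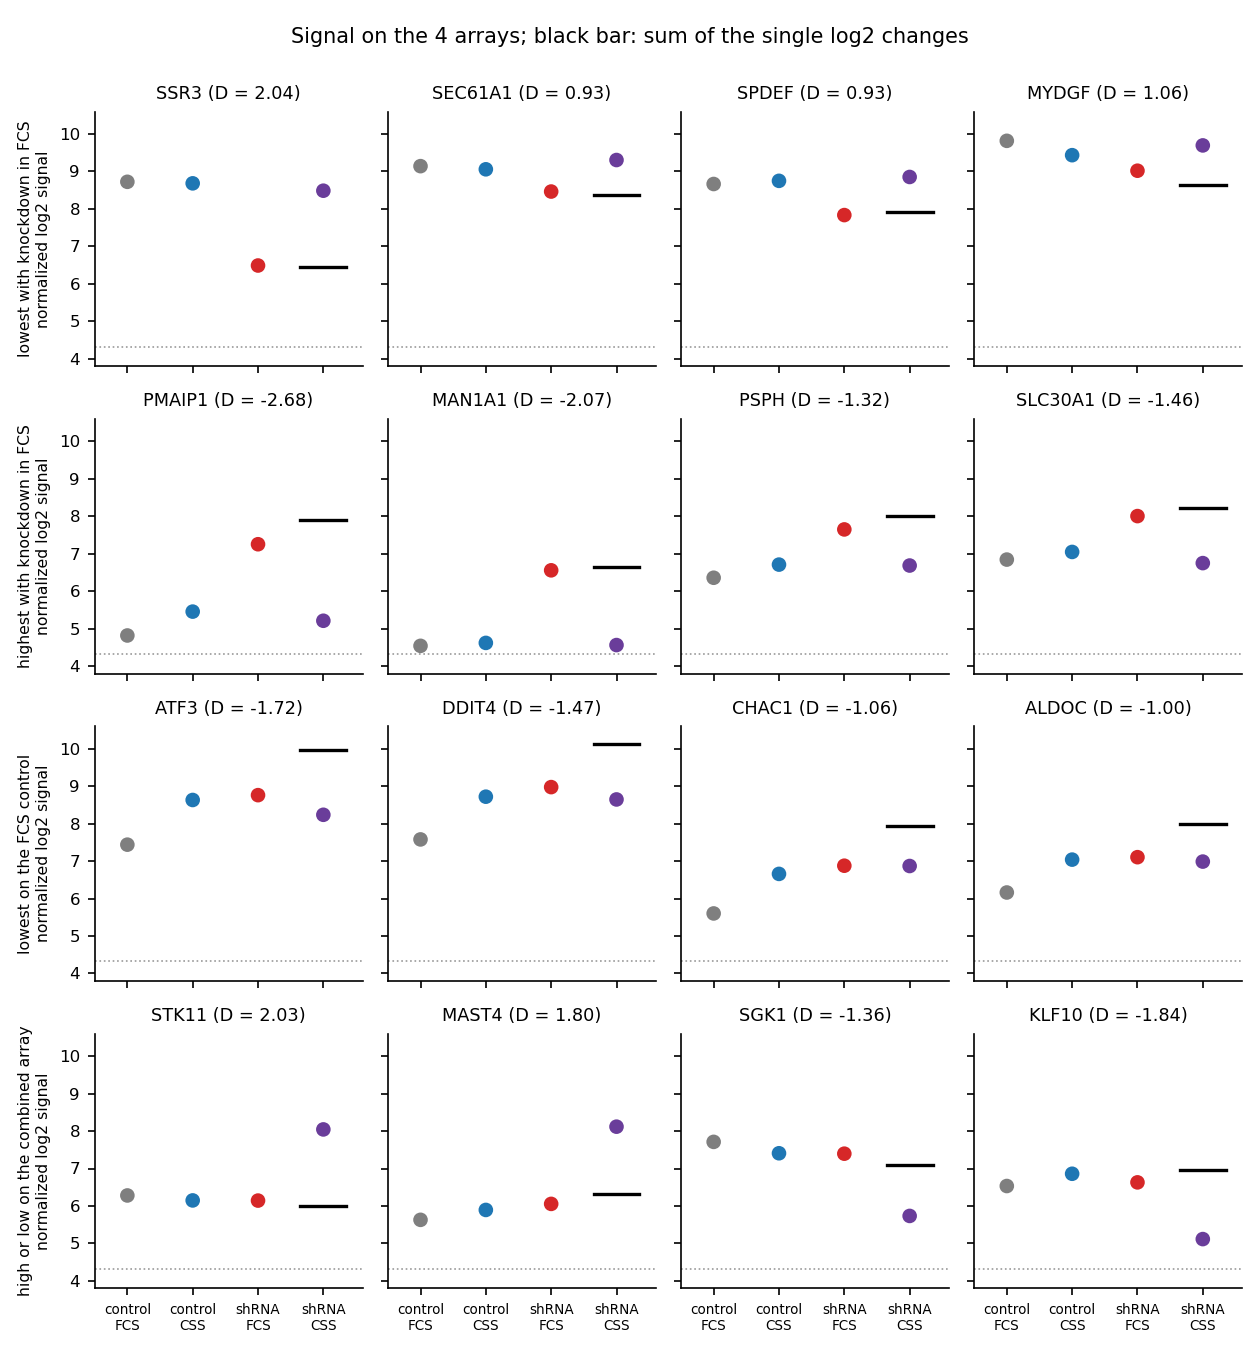
Normalized log2 signal of the brightest member probe set of 16 genes on the 4 arrays, 1 array per condition, so that no error bar can be drawn. The black bar marks the level at which the combined array would equal the sum of the single changes, the dotted line the floor of 4.32; the distance from bar to combined array is the departure D, from -2.68 for PMAIP1 to 2.04 for SSR3.

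A further form was a gene that was higher with either treatment, but no higher with both. Of 49 members higher by 0.5 or more on the log2 scale with CSS in control cells and with the shRNA in FCS, 47 had a departure under 0, with a median of -0.78, and of 47 that were lower by as much with each, 40 had a departure over 0, with a median of 0.67. The control in FCS is shared by both single changes and the departure, and an array that was off for a gene would give the same form. ATF3, an immediate stress-induced transcription factor, stood at 7.44 on the control in FCS, 8.63 on the control in CSS, 8.76 with the shRNA in FCS and 8.24 with both. Its departure of -1.72 compares with a local spread of 0.36. DDIT4 (REDD1), an inhibitor of mTOR signalling, was at 7.58 on the control in FCS and 8.72, 8.98 and 8.65 on the other arrays, a departure of -1.47 at a local spread of 0.35. CHAC1, which breaks down glutathione, was at 5.60 and then at 6.66, 6.88 and 6.87, a departure of -1.06, and ALDOC, a glycolytic aldolase, at 6.16 and then 7.04, 7.10 and 6.99, a departure of -1.0. All 4 genes were lowest on the control in FCS and lay close together on the other 3 arrays. In the opposite direction FKBP5, an androgen-induced chaperone of steroid receptors, was at 8.03 on the control in FCS and 7.14, 7.22 and 7.26 on the others, with a departure of 0.93.

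In the last form, to which most large departures belonged, neither single treatment did much: 111 of the 155 higher and 189 of the 313 lower probe sets had both single changes under 0.5 on the log2 scale. So did 4628 of all 6098 members, a larger share than in either group, so that this form was not particular to large departures. Among the 12 highest genes by brightest probe set were PLCD1, a phospholipase C, at 5.28, 5.28, 5.27 and, on the combined array, 8.05 (departure 2.78), PYY2 (2.68), the Golgi protein GOLIM4 (2.65), the polycystin PKD1 (2.39), the CREB coactivator CRTC1 (2.36), ADAM11 (2.36), the calcium channel subunit CACNG4 (2.28), the extracellular superoxide dismutase SOD3 (2.28) and the transcription factor LYL1 (2.22). Of these 9 genes, all but CACNG4 were past the limit on the combined array alone, and CACNG4 was measured by an _r_at probe set. GOLIM4 had a second, dimmer probe set with a departure of -0.72, and PKD1 is known to have near-identical pseudogenes, so that its signal is uncertain. Among the 12 lowest, some of which also had single changes above 0.5, were ZNF652 (-2.51), BTBD3 (-2.14), the mitochondrial carrier SLC25A46 (-2.08), TCFL5 (-2.06), TSC22D2 (-2.04), ANGEL2 (-2.00), KCTD9 (-1.93), PEG3 (-1.87) and GCH1, the first enzyme of tetrahydrobiopterin synthesis (-1.86). On the combined array these genes had log2 signals of 4.32 to 5.69. They passed the limit only on other arrays, which fixes their direction in part. With the floor raised to a signal of 100, none of these 9 low genes kept a 2-fold departure: GCH1 had -0.91, the others -0.56 to 0.066, the last being SLC25A46. Of the high ones GOLIM4 (0.56), ADAM11 (0.41), LYL1 (0.43), PKD1 (0.73) and SOD3 (0.74) lost it too.

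Genes of ER protein folding and the unfolded protein response had the most positive median departure of the lists examined, 0.35 over 23 genes against -0.08 over all 3988 genes. The departure was over 0 in 19 of the 23, against 41% of all genes, and exceeded the local spread upward in 16 and downward in 2, against 12.2% and 21.7% of all genes. Past the limit on all 4 arrays, 18 of 21 ER genes were over 0, against 48.9% of all 2583 such genes. With the shRNA in FCS 22 of the 23 had a lower signal than the control (median -0.49), while with the shRNA in CSS 17 were lower than the control in CSS (median -0.14). The change with CSS had a median of 0.06 in control cells, with 16 of 23 over 0, and of 0.39 in shRNA cells, with 22 of 23 over 0. Over all genes the shRNA change had medians of 0.0040 in FCS and -0.066 in CSS. The CSS change had medians of 0.02 in control cells and -0.06 in shRNA cells. The departure, the shRNA change in FCS and the CSS change in shRNA cells share the shRNA array in FCS. That array was the low one for most ER genes, but the highest for SEL1L. Each value is another view of the same 4 numbers per gene. SSR3, a subunit of the translocon-associated complex at which secretory proteins enter the ER, was at 8.72 and 8.68 on the control arrays, 6.49 with the shRNA in FCS and 8.48 on the combined array, a departure of 2.04 at a local spread of 0.38. The combined array was level with the controls. SDF2L1, a partner of ER chaperones, was at 8.22, 6.94, 6.77 and 7.56, a departure of 2.06. SEC61A1, the channel of the translocon, was at 9.14, 9.06, 8.46 and 9.30 (0.93), and XBP1, the transcription factor of the response, at 7.81, 7.57, 7.43 and 7.94 (0.75). DNAJB9, HSPA5 (the chaperone BiP), HSP90B1 (GRP94) and MANF departed by 0.66, 0.57, 0.54 and 0.52. SEL1L and HERPUD1, which serve the removal of misfolded proteins from the ER, went the other way, at -0.52 and -0.35.

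Probe sets of the ER genes mostly agreed. Of 7 genes with at least 2 member probe sets, 4 had all over 0, SSR1, PDIA6, PDIA4 and CANX, 1 had all under 0, SEL1L, and P4HB and CALR had both directions. The 4 probe sets of SSR1 departed by 0.45, 0.55, 0.81 and 0.36, and those of PDIA6 by 0.27, 0.15, 0.26 and 0.25. SSR3, SDF2L1, SEC61A1 and XBP1 rest on 1 member probe set each. With the values as deposited the ER median was 0.13 with 17 genes over 0, and with a common median 0.43, against medians of -0.49 and -0.20 over all genes.

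ATF6 and XBP1 are known to act through short promoter elements. In RefSeq promoter sequences (GRCh38.p14, windows of 1 length around the start of transcription), the ER stress response element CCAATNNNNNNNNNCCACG was found on either strand in 6 of the 22 ER genes with a sequence (CALR, CANX, CRELD2, HSP90B1, HSPA5 and XBP1), and in 22 of 27305 promoters (0.0806%). The element ERSE-II, ATTGGNCCACG, was found in SDF2L1, HYOU1 and HERPUD1 of the 22, and in 15 of all promoters (0.0549%). Both motifs are built from the same pair of short blocks, 1 of them reversed in ERSE-II, and no ER gene held both motifs. A match in these letters is a description and not a measured binding site. Both elements are known from genes of this response, so that their frequency in the list follows from how it was drawn up and says nothing about the departures. Most of the list's members held neither motif. These stretches are shown as a description of members that did. Each is written 5′ to 3′ on the strand of its gene and ends before the start of transcription, with the motif, or its reverse complement, in capitals; they lie at chr22:21642074-21642164 (SDF2L1, plus strand), chr22:28800570-28800661 (XBP1, minus), chr9:125241351-125241449 (HSPA5, minus), chr12:103930176-103930274 (HSP90B1, plus), chr22:49918514-49918612 (CRELD2, plus) and chr16:56931985-56932075 (HERPUD1, plus).
SDF2L1: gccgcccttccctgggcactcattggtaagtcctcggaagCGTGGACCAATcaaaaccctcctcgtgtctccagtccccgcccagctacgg
XBP1: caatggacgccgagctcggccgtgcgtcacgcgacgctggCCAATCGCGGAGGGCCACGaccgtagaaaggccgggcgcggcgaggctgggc
HSPA5: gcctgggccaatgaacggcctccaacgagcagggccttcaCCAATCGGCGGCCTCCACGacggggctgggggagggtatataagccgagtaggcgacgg
HSP90B1: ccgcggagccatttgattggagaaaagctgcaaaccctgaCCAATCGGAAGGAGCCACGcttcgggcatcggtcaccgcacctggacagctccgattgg
CRELD2: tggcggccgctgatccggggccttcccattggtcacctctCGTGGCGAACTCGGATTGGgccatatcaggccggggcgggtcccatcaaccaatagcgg
HERPUD1: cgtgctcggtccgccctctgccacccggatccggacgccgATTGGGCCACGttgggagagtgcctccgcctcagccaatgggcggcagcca
The motif ended 33 bases before the start in XBP1, 47 in HSPA5, 61 in CRELD2, 106 in HERPUD1, 175 in HSP90B1 and 177 in SDF2L1. The 9 ER genes with either motif ranged in departure from -0.35 for HERPUD1 to 2.06 for SDF2L1. Outside the list, SERP1, a stabiliser of the translocon, held the first motif and departed by 0.38, while the second was held by NUCB1, which departed by 0.56, and by SETD3, SHCBP1 and ZNF143, which departed by -1.10, -0.85 and -0.86.

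Genes of sterol and fatty acid synthesis, which the SREBP transcription factors control, had the most negative median, -0.42 over 20 genes with 18 under 0, against 59% of all genes. Of the 20 genes, 12 exceeded the local spread downward and none upward, against 21.7% and 12.2% of all genes. The list had a median change of 0.20 with CSS in control cells and of 0.36 with the shRNA in FCS, but of -0.23 with CSS in shRNA cells. Over all genes these medians were 0.02, 0.0040 and -0.06. LSS (lanosterol synthase) was at 7.77, 8.73, 7.76 and 7.58 on the control in FCS, the control in CSS, the shRNA in FCS and the combined array, a departure of -1.15. Its higher signal in CSS was seen in control cells and not with the shRNA. The cholesterol synthesis enzymes NSDHL, DHCR7 and SQLE (squalene epoxidase) departed by -0.82, -0.74 and -0.75, and were each highest with the shRNA in FCS. The second member probe set of SQLE gave 0.37. FASN and ACACA, the enzymes that make fatty acids, departed by -0.44 and -0.61, and MVK by 0.43 and 0.89 in 2 probe sets.

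Genes of glycolysis and the hypoxia response had a median of -0.32 over 22 genes, with 20 under 0, 13 beyond the local spread downward and none upward. Of all genes, 59% were under 0, 21.7% beyond the local spread downward and 12.2% upward. Besides ALDOC, HK2 (hexokinase) departed by -0.91 and GPI by -0.72. GPI, bright and at a local spread of 0.19, was at 9.98, 10.12, 10.64 and 10.06, high with the shRNA in FCS only. TPI1 had the same form at 9.75, 10.00, 10.27 and 9.96 (-0.56). The hypoxia genes NDRG1 and MXI1 were instead highest on the control in CSS and departed by -0.32 and -0.51.

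Genes of DNA replication had a median of -0.32 over 23 genes, with 19 under 0, 9 beyond the local spread downward and none upward. The shares of all genes were 59%, 21.7% and 12.2%. The replication genes were lower in CSS both in control cells, in 23 of 23 (median -0.51), and in shRNA cells, in 22 of 23 (median -0.84). Over all genes these changes had medians of 0.02 and -0.06. GINS2, a subunit of the replicative helicase, was at 6.49, 6.12, 6.60 and 4.59 (departure -1.65), and TYMS, which makes thymidylate, at 8.31, 7.57, 8.22 and 6.29 (-1.18). The combined array was the lowest of the 4 for both and for RFC3. Each of these genes passed the limit only on other arrays, so that the filter fixed part of this direction. With the floor at a signal of 100, TYMS departed by -0.83 and RFC3 by -1.44. A dim second probe set of TYMS, outside the members, was at the floor on 3 arrays and at 5.03 on the combined one. MCM6 and RRM2 departed by -0.84 and -0.37, while the departures of PCNA and CDC6 were both -0.04. A second member probe set gave -0.66 for RRM2 and -0.62 for CDC6. Past the limit on all 4 arrays, 11 of 14 were under 0, against 1319 of all 2583 such genes. Genes of mitosis had a median of -0.17 over 39 genes, with 27 under 0 (59% of all genes were), 7 beyond the local spread upward and 9 downward, against 12.2% and 21.7% of all genes. MAD2L1 (-1.65), KIF4A (-1.62) and NDC80 (-1.12) were at the low end, and CDCA3 (0.96), KPNA2 (0.68) and CDK1 (0.54) at the high end.

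The 18 androgen-induced genes did not share a direction. Their median was -0.27, but of the 10 past the limit on all 4 arrays 5 were over and 5 under 0, with a median of -0.04. The CSS change in control cells was over 0 in 9 of the 18 and under 0 in 9. Its median was 0.03, against 0.02 over all genes, so that the list was not lower in CSS there. In shRNA cells 5 were over 0 and 13 under, with a median of -0.24, against -0.06 over all genes. SGK1, a kinase that androgens and glucocorticoids induce, was at 7.71, 7.41, 7.40 and 5.73 (-1.36), and HPGD, which inactivates prostaglandins, at 6.89, 7.06, 6.35 and 5.19 (-1.33). Neither passed the limit on the combined array, so that the filter fixed part of their direction. The 4 probe sets of HPGD, of which only the brightest is a member, were all under 0, the others at -1.32, -1.29 and -0.58. With the floor at a signal of 100 the brightest departed by -0.17. ADAMTS1 and MAF departed by -1.29 and -1.18. KLK2, a prostate kallikrein, was at 8.30, 9.0, 7.07 and 6.59 (-1.18), but its second member probe set departed by -0.19 and another, outside the members, by 0.44. KLK3, which encodes prostate specific antigen, departed by -0.39 and -1.04 in 2 bright probe sets. In the second it was at 8.89 and 9.92 on the control arrays and at 7.94 and 7.93 on the shRNA arrays, so that its higher signal in CSS was limited to control cells. TMPRSS2 (0.34, and 1.36 in its second probe set), AZGP1 (0.52), FKBP5 and SPDEF (both 0.93) lay on the other side.

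Genes of amino acid synthesis and tRNA charging had a median of -0.21 over 30 genes, with 21 under 0, not far from the 59% of all genes. Beyond the local spread, 15 lay downward and 3 upward, against 21.7% and 12.2% of all genes. Past DDIT4, PSPH and CHAC1, the amino acid carriers SLC1A4 and SLC7A5 departed by -0.71 and -0.53. ATF4 itself departed by -0.03. Relative to all genes this list changed side with the normalization, at -0.13 here and 0.10 with the values as deposited or a common median. Immediate early genes had a median of -0.29 over 14 genes, with KLF10, a TGF-β-induced factor, at 6.53, 6.86, 6.63 and 5.11 (-1.84). Single genes of other lists stood out as well: PER2, a clock gene and reported β-TrCP substrate, departed by -1.74 in its member probe set, which was at 4.76 on the combined array and at 6.26 to 6.68 on the others, while a dim probe set at the floor on 3 arrays gave 1.19. The member probe sets of KLF10 and PER2 did not pass the limit on the combined array, so that the filter fixed part of their direction. ID1 and ID3, inhibitors of bHLH factors that BMP signals induce, departed by 0.98 and 0.97, whereas ID2 departed by -0.97. Of the Wnt and β-catenin outputs 12 of 14 were under 0 (median -0.22), against 59% of all genes. TCF7L2 was lowest, at -1.04 in its brightest probe set with -0.99, -0.60 and 0.14 in its other member probe sets.

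After quantile normalization, abundant housekeeping lists had medians near 0. The 53 cytosolic ribosomal protein genes had a median of -0.0039, with 1 beyond its local spread, RPS27L at -0.47. With a common median their median was 0.31 with 51 of 53 over 0, and they stood 0.51 above all genes there and with the values as deposited. The 63 respiratory chain genes had a median of -0.04, the 34 proteasome subunits -0.05, and the 30 SR proteins and hnRNPs -0.04. HNRNPH1, a splicing regulator, was an exception in 2 of its 3 member probe sets, which departed by 0.81 and 0.97 with the control in CSS as the low array, while the third gave 0.05. That array also had the largest 3′ to 5′ difference of ACTB, whose part in these values was not tested.

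Of the genes the study names for these arrays, 15 were members, chosen by it on the same arrays, and their median departure was 0.0038. TWIST1 and TRAF4 did not reach the limit. ANXA2, which binds phospholipids at the membrane, was the closest of them to the sum: its log2 signals of 7.87, 8.52, 9.63 and 10.28 gave a departure of 0.00, with -0.15 and -0.04 in 2 other probe sets. Its partner S100A10 was at 7.44, 8.43, 9.11 and 10.02 (-0.09). Both were higher with each single treatment and highest with both. AHR, the aryl hydrocarbon receptor, was at 5.38, 5.82, 7.10 and 7.06, a departure of -0.48 within its local spread of 0.73, and its target CYP1A1 at 5.51, 5.25, 6.83 and 5.98 (-0.59), also within 0.73. With the values as deposited AHR, TBCE and TPD52L1 departed by at least 2-fold, at -1.09, -1.10 and -1.17, and with a floor at 100 AHR departed by -0.039. ANXA1 (0.51), AZGP1 (0.52), MED27 (0.52), ADCY2 (0.36), IGFBP5 (0.32), TPD52L1 (-0.57) and TBCE (-0.60) were between those and the genes already given. TUBA1A, an α-tubulin labelled in the plot of additivity and chosen after its values were seen, had the highest sum of single changes, at 4.62, 6.31, 7.03 and 8.14, and departed by -0.58. SSH3 departed by 0.82, with -0.23 and -0.24 in 2 dimmer probe sets.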

How the data were processed

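The authors deposited log2 signals of 22277 probe sets on 4 Affymetrix U133 arrays, and name MAS 5 with present calls, a low-intensity filter and quantile normalization. Present calls were not used here, and the deposited columns did not share a distribution. Whether they are unchanged MAS 5 signals was not tested. The 15678 probe sets reaching a signal of 20 on any array were quantile normalized here as log2 values, and lower values were then raised to 20, which touched 8 members. The departure is a difference of 4 arrays with no test. With 1 array per condition, the number of arrays limits the precision. Symbols came from GEO's platform annotation, updated through RefSeq (1 gene for 19070 probe sets, several for 1043, none for 2164). Robust SD and local spread are scaled median absolute deviations. Genes named are the 12 highest and 12 lowest with agreeing probe sets, the same by brightest probe set, up to 3 per list, those the study names, and others, as further list members or probe set examples, chosen after their values were seen. Members and lists were chosen with earlier results of these data known, and lists overlap. The steps were tested on simulated data (Python 3.11.15, numpy 2.4.6, pandas 2.3.3). A result on 1 gene covered by the naming rule is not reported here.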

Additional observations from a re-analysis of the deposited data

Results flagged for a closer look

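ZNF652, a zinc finger gene, was at least 2-fold higher in CSS in control cells (1.05 on the log2 scale) and at least 2-fold lower in CSS with the shRNA (-1.46), which gives its departure of -2.51. Its log2 signals were 6.15 and 7.20 on the control arrays and 5.91 and 4.45 on the shRNA arrays. PRPF6, a splicing factor, did the opposite in an _x_at probe set, with -1.01 in control cells and 1.13 with the shRNA, a departure of 2.14, but its brighter probe set departed by 0.45. These were the 2 members with 2-fold serum changes in opposite directions, and none had 2-fold knockdown changes in opposite directions. With 1 array per condition the difference was not tested.

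Outside the measured genes, the 3′ control probe set for 28S ribosomal RNA had a deposited log2 value of 6.69 on the combined array and of 4.30 to 4.36 on the others, 2.32 above the highest of them. The middle control was at 9.31 on the combined array and at 8.68 or less on the others, while the 5′ control was at 7.33 against 7.34 to 7.65. The part of this in the departures was not tested.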

How the results depend on the processing

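No paired analysis was possible because each condition has 1 array and the labels give no shared replicate numbers; for the same reason no replicate could be left out. Departures of at least 2-fold were 155 probe sets higher and 313 lower, and 92 and 201 genes. They became 56 and 1075 probe sets and 38 and 719 genes with the values as deposited (median -0.46), and 107 and 474 probe sets and 66 and 311 genes with a common median (median -0.17). A floor at a signal of 100 gave 70 and 37 probe sets and 40 and 25 genes, the limit passed on all 4 arrays 50 and 14 and 26 and 10, and a limit of 20 in place of 100 gave 1089 and 1000 and 689 and 572. Calls at 3-fold were 47 and 57 probe sets and 33 and 37 genes, and at 1.5-fold 452 and 926 and 255 and 619. A linear scale gave 199 and 308 probe sets, without 2 whose sum of single changes was not above 0, and the mean over probe sets 91 and 198 genes. Quantile normalization of all probe sets and leaving out the floor changed no count by over 1.5 times. Relative to all genes, the ER list stood at 0.43, and at 0.63 with the values as deposited or a common median, where ribosomal protein genes stood at 0.51. The androgen-induced list stood at -0.19, and at -0.035 with the limit passed on all 4 arrays. The same direction in both brightest probe sets was found for 64.1% of genes, for 82.7% with the values as deposited and for 74.7% with a common median; these settings were chosen for the agreement after seeing the data. Under a floor of 100, SLC25A46 turned from -2.08 to 0.066. Of 35 genes with a 2-fold departure among those named by rank or by the study, 14 kept it. Genes named only as list members were not in this count. The cause of these differences was not tested.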

Other observations

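By chromosome, the median departure of the member genes ranged from -0.29 over 133 genes on chromosome 4, -0.20 over 52 on chromosome 13 and -0.17 over 61 on chromosome 18 to 0.05 on chromosomes 19 (226 genes) and 22 (92 genes). Over genes past the signal limit on all 4 arrays, chromosome 4 remained lowest, at -0.14 over 76 genes, and chromosome 22 highest, at 0.07 over 65. The median departure differed little with the GC content of the promoter. Over 5 groups of the 3404 member genes with a RefSeq promoter, it was between -0.10 and -0.07. The share at least 2-fold higher was 3.40% in the group of highest GC and 1.07% to 2.67% in the others. The share at least 2-fold lower was 4.41% to 5.93% over the groups. A link with GC content was not tested. These are descriptions of 4 arrays, and neighbouring genes are not independent.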
